A study of Mus musculus with 2 samples.

Results

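The interleukin 33 (IL-33) and interleukin 1 (IL-1) receptor axis was followed in mouse costal-cartilage-derived stem cells (CDSCs) through 5 genes, Il1rl1, Il33, Il1r1, Il1rap and Il1rn, out of the 21849 genes counted. They were picked by name, and Il1rl1 was picked because its summed UMI level was already known to rise in culture, so its difference between the libraries is given as a description only and supports nothing. The other 4 genes were added as its ligand and its partners in the IL-1 system.

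The study asked how CDSCs change during expansion in vitro. CDSCs were taken from rib cartilage of newborn C57BL/6J mice, either CD45.1 or ZsGreen, in the first week of life, by collagenase digestion and flow sorting of the fraction negative for the leukocyte protein CD45 and positive for CD51, the integrin chain encoded by Itgav. Single-cell RNA sequencing of 3′ cDNA covered 1 library of freshly sorted (primary) CDSCs and 1 of CDSCs after 2 to 3 passages, grown in medium with fetal bovine serum. The GEO labels name bone marrow as the tissue of both libraries, and how many animals entered each library was not given. With 1 library per group there was no replicate and no test, and each interval below is an exact 95% interval that covers counting error only. ZsGreen was counted 60957 times in the primary and 0 times in the cultured library, and Uty, a gene of the Y chromosome, had 0.0802 CPM in primary and 61.2 CPM in cultured cells, so a difference between the libraries cannot be told apart from a difference between their donors.

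IL-33 is a cytokine that is stored in the nucleus of stromal and epithelial cells and is released when they are damaged. It binds ST2, the product of Il1rl1, and ST2 then recruits the accessory chain encoded by Il1rap. The same accessory chain joins IL1R1, the product of Il1r1, when that receptor binds IL-1, while the product of Il1rn occupies IL1R1 without signalling. Mast cells and group 2 innate lymphoid cells are known carriers of ST2, and fibroblasts in culture are known to make a soluble form that acts as a decoy for IL-33. The soluble and the membrane form come from one gene through different start sites and 3′ ends, and a UMI count per gene adds them together.

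In GENCODE M21 (GRCm38), Il1rl1 (ENSMUSG00000026069) lay on chromosome 1 from 40429570 to 40465415 on the plus strand, and Il1r1 lay on the same chromosome from 40225080 to 40317257. Il33 lay on chromosome 19 from 29925114 to 29960718, Il1rap on chromosome 16 from 26581704 to 26730117 and Il1rn on chromosome 2 from 24336853 to 24351494. The annotation gave Il1rl1 a start at 40429570, for a transcript that ended at 40446723, and a start at 40439627, for a transcript that ended at 40465415. Further Il1rl1 transcripts started at 40436589, 40439776 and 40440628. The transcript from 40439776 ended at 40448148, so an early end was not particular to the first start. RefSeq (GRCm38.p6) had 300-base promoter windows, 250 bases before and 50 bases after a start, for all 5 genes, 10 windows in all. Both Il1rl1 windows are printed because they belong to start sites that the deposited counts merge, and they lie 10059 bases apart. The first spans chr1:40429320-40429619 and the second chr1:40439379-40439678, both on the plus strand. Capitals mark matches, on either strand, to the letters of 5 motifs, which were TGANTCA for AP-1, TGACGT for the CRE, AGATAA for the GATA motif, GGANNTTCC for NF-kB and TATAAA for the TATA box.

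Il1rl1 first window: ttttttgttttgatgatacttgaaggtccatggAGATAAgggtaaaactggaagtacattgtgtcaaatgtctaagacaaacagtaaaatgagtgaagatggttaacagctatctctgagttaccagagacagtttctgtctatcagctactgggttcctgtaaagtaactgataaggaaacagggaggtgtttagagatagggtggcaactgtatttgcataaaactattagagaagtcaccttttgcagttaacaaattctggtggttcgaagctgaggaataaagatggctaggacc

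Il1rl1 second window: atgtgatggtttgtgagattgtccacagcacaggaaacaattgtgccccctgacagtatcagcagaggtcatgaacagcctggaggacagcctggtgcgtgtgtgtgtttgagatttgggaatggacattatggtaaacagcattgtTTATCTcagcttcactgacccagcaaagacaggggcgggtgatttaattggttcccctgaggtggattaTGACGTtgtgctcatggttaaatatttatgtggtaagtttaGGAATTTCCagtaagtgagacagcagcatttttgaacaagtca

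The first window held 1 GATA match. The second held a CRE match, a GATA match on the minus strand and an NF-kB match just after the start. The GATA letters were found in 11.2% of all 32851 windows of this length, the CRE letters in 7.51% and the NF-kB letters in 4.26%. Of the other members, the first Il1rn window held an AP-1 match, present in 7.81% of all windows, while both Il33 windows and the third Il1rn window held a TATA match, present in 13.6%. No Il1r1 or Il1rap window held any of these letters. A match describes letters only.

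Barcodes with 500 genes or more, 1000 UMIs or more and a mitochondrial share of 10% or less were kept as cells. This left 11746 primary cells with 137148874 UMIs (median 10026.5 per cell) and 5338 cultured cells with 330129909 UMIs (median 56864.5 per cell). In the cultured library 5460 barcodes, 50.6%, failed the filter, and 32 barcode sequences occurred in both libraries. Levels are CPM, the count of a gene scaled to a summed library of 1e+06 UMIs, and 3 counts were worth 0.0219 CPM for primary and 0.00909 CPM for cultured cells. The chondrocyte transcript Col2a1 had 53268 CPM in primary and 489.8 CPM in cultured cells, the sorted-for Itgav was at 92.5 and 109 CPM, and Ptprc, which encodes CD45, was at 0.620 and 0.345 CPM.

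Il1rl1, which encodes the IL-33 receptor ST2, was nearly absent from primary CDSCs and abundant in cultured ones. The primary library held 23 Il1rl1 UMIs, or 0.168 CPM (0.106 to 0.252). The cultured library held 39557 UMIs, or 119.8 CPM (119 to 121). The log2 ratio of cultured over primary CPM was 9.48 (8.90 to 10.14), a 715-fold higher level.

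The few primary Il1rl1 UMIs were unevenly placed. They sat in 13 of the 11746 cells, and 9 of the 23 came from 1 cell of 7187 UMIs that also held 491 UMIs of Cma1, 290 of Mcpt4, 231 of Cpa3 and 151 of Tpsb2, which encode mast cell proteases, and 6 UMIs of Col2a1. Mast cells carry CD45, against which the cells had been sorted. No other primary cell had more than 1 UMI of these 4 genes. The other 14 Il1rl1 UMIs were spread over 12 cells, with at most 2 in a cell, and these cells held 11 to 1412 UMIs of Col2a1 each. Without the cell with mast cell transcripts the primary level was 0.102 CPM and the log2 ratio was 10.20.

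The transcripts of mast cells did not accompany Il1rl1 in culture. Of 10 mast cell markers, Mcpt4, Tpsb2, Tpsab1 and Fcer1a were at 0 in the cultured library and Cpa3 was at 0.103 CPM. Fcer1a was at 0 in the primary library too, and the primary cell with mast cell transcripts held 0 UMIs of Tpsab1. The summed level of the 10 markers was 11.5 CPM before and 20.7 CPM after culture. Gata2, a transcription factor not restricted to mast cells, made up 20.5 CPM of the cultured sum. Of the markers of T and innate lymphoid cells, Cd3e and Cd3g were at 0 in culture and Gata3 was at 0.224 CPM. Their sum, 348 CPM before and 388 CPM after culture, was almost all Rora, at 345 and 371 CPM.

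Il1rn, the antagonist of IL1R1, was also far higher in culture. It rested on 21 UMIs in 16 primary cells, or 0.153 CPM (0.0948 to 0.234), against 1635 UMIs in 412 cultured cells, or 4.95 CPM (4.72 to 5.20). The log2 ratio was 5.02 (4.40 to 5.71), a 32.3-fold higher level.

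The receptor chains Il1r1 and Il1rap were present in both libraries and higher in culture by a smaller factor. Il1r1, the signalling receptor of IL-1, had 24.1 CPM (23.3 to 24.9) in primary and 82.7 CPM (81.7 to 83.6) in cultured cells, with a log2 ratio of 1.78 (1.73 to 1.83). Il1rap, the accessory chain shared by ST2 and IL1R1, was at 9.85 CPM (9.33 to 10.4) and 24.0 CPM (23.5 to 24.5), a log2 ratio of 1.28 (1.20 to 1.37). Neither reached a 4-fold difference, although with each cell weighing the same the Il1r1 log2 ratio was 2.01, just past 4-fold.

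Il33, the ligand of ST2, was the one member with a lower level in culture and was rare in both libraries. It had 184 UMIs in 162 primary cells, or 1.34 CPM (1.15 to 1.55), and 228 UMIs in 185 cultured cells, or 0.691 CPM (0.604 to 0.786). The log2 ratio was -0.96 (-1.24 to -0.67), and no cell of either library had more than 6 Il33 UMIs.

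In all, 2 of the 5 members, Il1rl1 and Il1rn, were 4-fold or more higher in culture and none was 4-fold or more lower. Of the 12839 genes that reached 1 CPM in a library, 12.6% lay 4-fold or more above and 7.48% as far below their primary level, with a median log2 ratio of 0.36. Of the genes that reached 10 CPM, these shares were 10.6% and 5.73%. With each cell weighing the same, Il1r1 was also such a member. Since Il1rl1 was chosen for its rise, nothing is read from this count. The plot of member levels shows both libraries side by side.

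**Figure D1:**
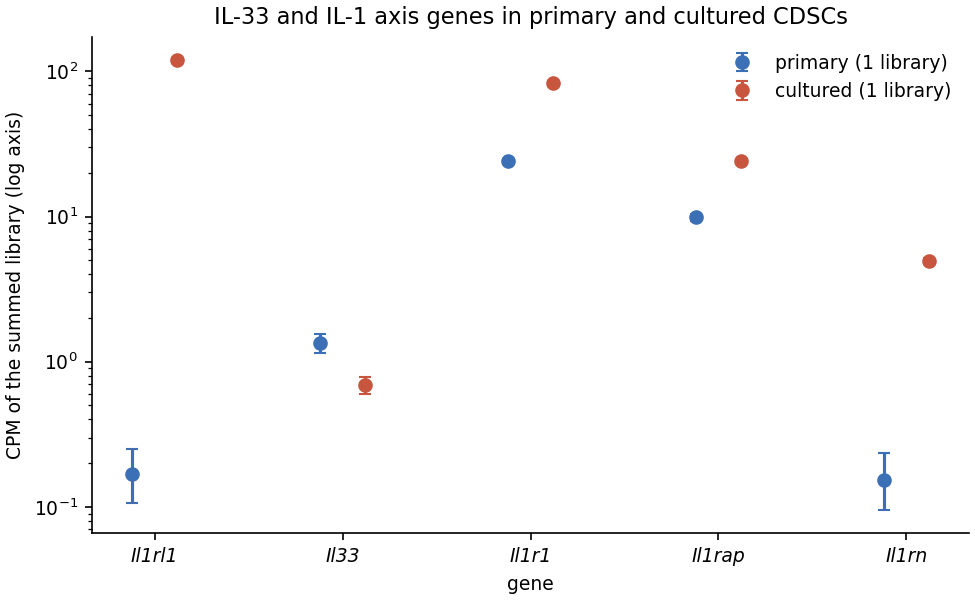
Level of each of the 5 genes (x axis) in CPM of the summed library on a log axis (y axis), with 1 point for the primary and 1 for the cultured library and bars for exact 95% Poisson intervals, which are smaller than the points for abundant genes. Il1rl1 lies at 0.168 CPM before and 119.8 CPM after culture, and Il33 is the only gene whose cultured point is lower.

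Because cultured cells held more UMIs each, shares of cells were compared after each cell was thinned at random to 5000 UMIs. The 787 primary and 795 cultured cells with fewer were left out. Il1rl1 was then detected in 6 of 10959 primary cells, 0.0547% (0.0201 to 0.119), and in 1279 of 4543 cultured cells, 28.2% (26.8 to 29.5). Without thinning the shares were 0.111% and 65.0%. Among the other members, Il1r1 was detected in 8.49% of primary and 29.8% of cultured cells, Il1rap in 4.58% and 10.4%, and Il1rn in 0.0365% and 2.09%. Il33 was detected in 0.639% of primary and 0.330% of cultured cells. Unthinned shares of Il33 were 1.38% and 3.47%, the opposite order to its CPM, and no order is read from them.

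Among cultured cells thinned to 20000 UMIs, a depth that 4156 cells reached, Il1rl1 varied widely from cell to cell. A UMI was found in 55.6% of these cells. The median cell had 1, the 90th percentile was 6 and the highest cell had 96. The 416 cells with the most Il1rl1 held 56.6% of its UMIs, and 223 cells had at least 10. Il1r1 was spread more evenly, with a UMI in 65.4% of cells, a median of 1, at least 10 in 77 cells and 41.8% of UMIs in its own highest 416 cells. Il1rap was detected in 31.1% of the cells. Its own highest 416 cells held 59.4% of its UMIs, so such a share was not particular to Il1rl1. Il1rn was detected in 5.65% of the cells and Il33 in 1.44%. Il1rn was rare but concentrated, since 9 cells had at least 10 UMIs.

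**Figure D2:**
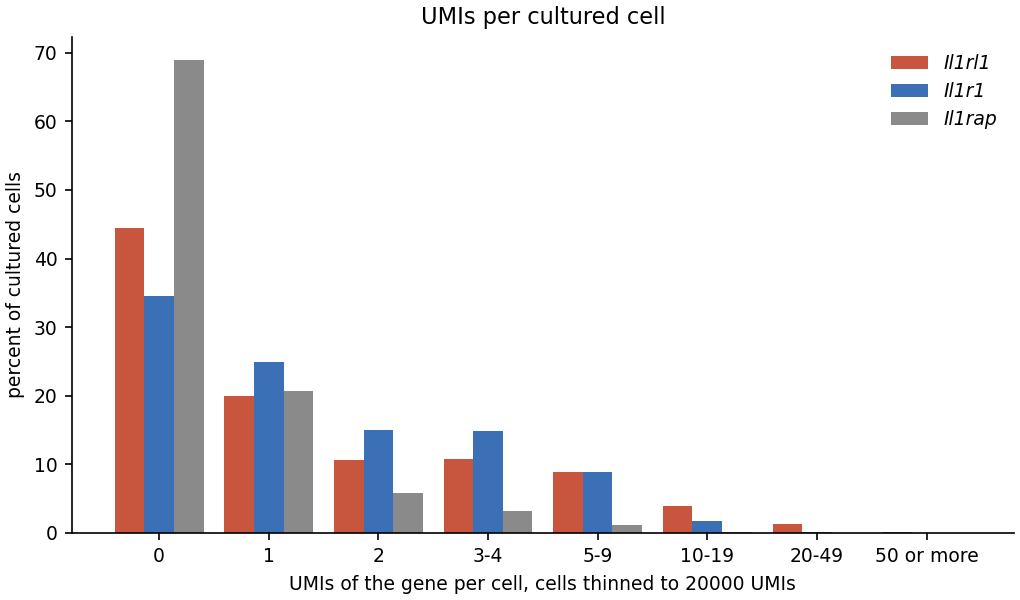
Share of the 4156 cultured cells (y axis, percent) by the number of UMIs of Il1rl1, Il1r1 or Il1rap in the cell after thinning to 20000 UMIs (x axis, bins). Il1rl1 has no UMI in 44.4% of cells and at least 50 in 0.120%, a bin that is empty for Il1r1.

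The shares of cells with Il1r1 or Il1rap differed little between cells with and without an Il1rl1 UMI. Cells with an Il1rl1 UMI had an Il1r1 UMI in 67.6% of cases (65.7 to 69.6), against 62.7% (60.4 to 64.9) of cells without one, and this gap of 4.95 percentage points was 2.39 in a second random thinning. Il1rap was found in 30.9% of cells with and 31.3% of cells without an Il1rl1 UMI, a gap of -0.415 percentage points that was 1.05 in the second thinning. Il1rn was found in 4.33% (3.54 to 5.24) of cells with and 7.31% (6.16 to 8.59) of cells without an Il1rl1 UMI. In contrast, cells with an Il1rn UMI had Il1r1 in 76.2% of cases and Il1rap in 46.8%, against 64.8% and 30.1% of cells without one. All these shares are pooled over the clusters described below. The cluster led by Mmp13 held 67 of the 235 cells with an Il1rn UMI. It had Il1r1 in 85.0% and Il1rap in 39.1% of its cells. How far the clusters bear on these gaps was not tested. Cells of 1 library share their preparation and are no replicates.

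Clustering of the cultured cells, with the 5 genes kept out of the clustering, gave 10 clusters of at least 50 cells, and Il1rl1 UMIs were found in all of them. Of these, 9 are described here, named by their leading genes. The highest level was 245 CPM (242 to 249) in a cluster of 979 cells led by Hmcn1, which encodes an extracellular matrix protein, and this cluster held 47.6% of all cultured Il1rl1 UMIs. The S-phase-like cluster led by H1f5, which carried all 12 S phase markers, was at 109 CPM, and the cluster led by H2bc4 and Klk8 was at 102 CPM. The dividing cluster led by Cenpf, with all 11 G2/M markers, was at 96.1 CPM (92.9 to 99.3). Lower levels were found in the clusters led by Piezo2 (74.3 CPM) and Mmp13 (45.4 CPM), and the lowest was 25.8 CPM (23.8 to 28.0) in 264 cells led by Nr5a2. The intervals of these levels did not overlap between the Hmcn1 cluster and any other cluster of at least 50 cells. They cover counting error only and not the spread among cells. How many of all genes differ in this way was not counted, so nothing is read from it. At 20000 UMIs per cell, Il1rl1 was detected in 72.3% of cells in the Hmcn1 cluster and in 27.8% of cells in the Nr5a2 cluster.

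A pair of clusters differed from the rest in depth or quality. The cluster of 875 cells led by Cmss1 and Lars2 had a median of 1288 UMIs and held Il1rl1 at 75.4 CPM but Il1r1 at 14.8 CPM and Il1rap at 5.61 CPM. The 52 cells led by Lars2 and Csmd3 had a median mitochondrial share of 7.23% and the highest Il1r1 (249 CPM) and Il1rap (74.2 CPM) levels, with Il1rl1 at 174 CPM. How far depth and mitochondrial share bear on these levels was not tested.

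A macrophage-like cluster of 9 cells was led by Dock2 and Ccl12 and carried all 10 macrophage markers. Only 4 of their UMIs were Il1rl1, 9.87 CPM (2.69 to 25.3), and 1 of the 8 cells that reached 20000 UMIs held any. That interval overlapped the one of the Nr5a2 cluster (23.8 to 28.0). Cultured barcodes that failed the cell filter held Il1rl1 at 119 CPM. The level of background was therefore not settled by these few cells. Their median depth was 35946 UMIs per cell, against 74343 in the Hmcn1 cluster. They held Il1rn at 46.9 CPM (28.2 to 73.2), on 19 UMIs.

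The other members were distributed differently over the 9 clusters. Il1r1 was at 173 CPM (168 to 177) in 712 cells led by Mmp13, a collagenase of cartilage and bone. In the Piezo2 cluster Il1r1 was at 116 CPM (112 to 121) and in the Hmcn1 cluster at 93.1 CPM (90.9 to 95.2). The H2bc4 cluster had Il1r1 at 43.8 CPM (42.4 to 45.2). Of the cultured Il1r1 UMIs, the Hmcn1 cluster held 26.2% and the Mmp13 cluster 22.7%. Il1rap was at 39.0 CPM (36.9 to 41.1) in the Mmp13 cluster, at 28.0 CPM in the Hmcn1 cluster and at 13.0 CPM in the H2bc4 cluster. Il1rn was at 10.1 CPM (9.11 to 11.2) in the Mmp13 cluster, which held 22.3% of the cultured Il1rn UMIs, at 5.99 CPM in the S-phase-like cluster and at 1.09 CPM (0.871 to 1.35) in the Hmcn1 cluster. At 20000 UMIs per cell it was detected in 10.2% of cells in the Mmp13 cluster and in 1.58% of cells in the Hmcn1 cluster. Il33 lay between 0.181 and 1.09 CPM over the 10 clusters. The interval of the highest, 0.707 to 1.61 CPM on 25 UMIs in the Piezo2 cluster, overlapped that of the lowest, 1 UMI in the Cmss1 cluster. It did not overlap the interval of the H2bc4 cluster, 0.367 to 0.677 CPM on 44 UMIs.

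**Figure D3:**
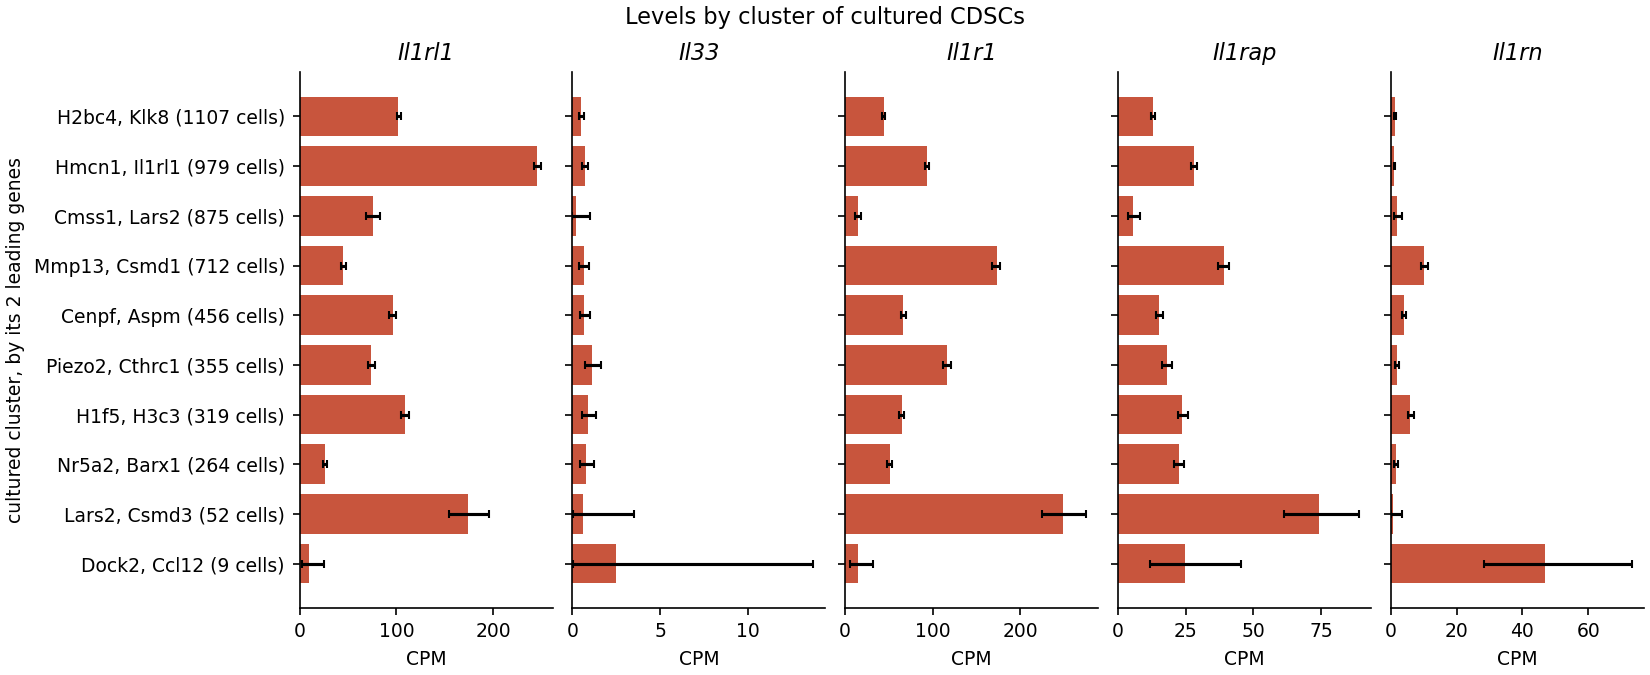
CPM of each gene (x axes, 1 panel per gene with its own scale from 0) in 9 cultured clusters of at least 50 cells and in the 9 macrophage-like cells led by Dock2 (rows), with exact 95% Poisson intervals. Il1rl1 peaks in the Hmcn1 cluster at 245 CPM, whereas Il1rn is at 1.09 CPM there and at 10.1 CPM in the Mmp13 cluster.

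Across these 10 clusters the log2 level of Il1rl1 had a Pearson r of 0.17 with Il1r1, 0.07 with Il1rap, -0.10 with Il33 and -0.39 with Il1rn. All clusters come from the same library and differ in depth, so these values describe the pattern only. The 8 genes most like Il1rl1 by this measure, of 8473 with at least 10 CPM, were Bnc1 (r = 0.92), Ptgr1 (0.88), Hmcn1 (0.86), Nqo1 (0.83), Abcg2 (0.83), Myh10 (0.80), Slc25a30 (0.80) and Angptl7 (0.80). Bnc1 encodes a zinc finger transcription factor, Nqo1 a quinone reductase and Abcg2 an efflux transporter. Bnc1 was at 0.0875 CPM before and 21.8 CPM after culture, whereas Nqo1 was at 44.4 and 83.1 CPM. With finer clusters 6 of the 8 genes stayed among the closest, and with 30 principal components only 1 did, so the list depends on how the cells were divided.

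In primary cells the receptor chains followed other lines. Il1r1 was at 40.8 CPM (970 UMIs) in 1784 cells led by Slc22a4 and Srxn1 and at 38.4 CPM in 1314 cells led by Aoc2, Grem1 and Acta2, but at 11.8 CPM in the largest cluster, 2748 cells led by Clu. Il1rap ranged from 5.07 CPM in the cluster led by Slc35f1 to 16.2 CPM (43 UMIs) in the 290 cells that included the mast cell transcripts. Il33 ranged from 0.753 to 2.91 CPM, the latter on 10 UMIs in the dividing cluster led by Pbk.

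Il1rl1 sits in a group of receptor genes on chromosome 1, and its neighbours did not all differ alike between the libraries. Of 11 genes listed for this neighbourhood, 6 reached 1 CPM in a library. Of these, 4 were 4-fold or more higher in culture, against 12.6% of all genes, but Il1rl1, chosen for its rise, is 1 of the 4. All 4 reached 1 CPM in the cultured library only, Mfsd9 with 1.05 CPM, so nothing is read from this count. With TMM or RLE scaling the count was 3 of 5. Il18rap, the accessory chain of the IL-18 receptor, went from 8 UMIs (0.0583 CPM) to 2065 UMIs (6.26 CPM), a log2 ratio of 6.74 (5.76 to 7.96). Mfsd9, a predicted transporter, had a log2 ratio of 3.85 and Il1rl2, the IL-36 receptor, one of 2.66. The kinase gene Map4k4, at 124 and 309 CPM, had a log2 ratio of 1.32 and Il1r1 one of 1.78. Il18r1, the ligand-binding chain of the IL-18 receptor, was under 1 CPM in both libraries, with a log2 ratio of -0.20 (-0.61 to 0.23), and Il1r2, a decoy receptor for IL-1, was at 0.875 and 0.0909 CPM, a log2 ratio of -3.27. Across the cultured clusters Il18rap had an r of 0.68 and Il18r1, on 151 UMIs in all, an r of 0.80 with Il1rl1.

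Of the 10 IL-1 family receptor genes, 7 reached 1 CPM in a library. Il1rl1, which was chosen for its rise, Il18rap and Il1rl2 were higher by 4-fold or more and 1 gene was lower by as much, against 12.6% and 7.48% of all genes. That gene was Il1rapl2, a brain-expressed homologue, with 3.54 CPM before and 0.306 CPM after culture. Its relative Il1rapl1 was at 250.0 and 114 CPM, a log2 ratio of -1.13. The list's median log2 ratio was 1.78. Each receptor gene past 4-fold reached 1 CPM in only 1 library, so nothing is read from these counts.

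Of the ligands, Il1rn was higher and Il1b lower by at least 4-fold, among 5 with at least 1 CPM. Over all genes the shares were 12.6% and 7.48%, and with so few ligands nothing is read from these counts. Il1b, which encodes IL-1 beta, had 229 UMIs (1.67 CPM) before and 2 UMIs after culture, a log2 ratio of -7.52 with the 2 counts raised to 3. The neutrophil markers moved with it, since the sum of 6 was 28.5 CPM before and 0.158 CPM after culture, with Retnlg at 0 in culture, and their part in the Il1b level was not tested. Il1a had 4 and 14 UMIs. Il18, a cytokine of the same family, was at 14.8 and 16.3 CPM, and its inhibitor Il18bp was at 1.02 and 0.645 CPM.

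In the signalling chain downstream of the receptors few genes were past 4-fold, and few were among all genes, of which 12.6% were higher and 7.48% lower, so the counts are no result about the chain. Of 15 adaptor genes, all measured at 1 CPM or more, 1 was at least 4-fold higher and 0 were lower, with a median log2 ratio of 0.25. That gene was Irak3, a kinase-like inhibitor of IL-1 and Toll-like receptor signalling, at 3.77 and 16.2 CPM, a log2 ratio of 2.11 (1.98 to 2.24). Myd88, the adaptor that IL1R1 and ST2 both use, was at 19.9 and 8.75 CPM, a log2 ratio of -1.19, while Peli2, a ubiquitin ligase, had one of 1.99 and the kinase Irak4 one of 1.34. Of 16 genes of the NF-kB system, 1 was at least 4-fold higher and 0 were lower, with a median of 0.19. That gene was Ikbkg, a subunit of the IkB kinase, with a log2 ratio of 2.20, while Nfkbia, the inhibitor that NF-kB itself induces, had one of -0.60, Nfkbiz one of -0.00 and Bcl3, a coactivator of NF-kB, one of -1.65. The calls of Irak3 and Ikbkg lay close to 4-fold, and with RLE scaling neither list had a gene at least 4-fold higher.

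Genes known to be induced by IL-1 in fibroblasts and chondrocytes included several with higher levels in culture. Of 25 such genes, 20 reached 1 CPM in a library, 13 were 4-fold or more higher and 1 was lower by as much, against 12.6% and 7.48% of all genes, with a median log2 ratio of 3.58 against 0.36. The list was written with earlier results of these data known, so nothing particular to it is read from the count. Among chemokines, Cxcl5, which attracts neutrophils, went from 0.0510 to 36.2 CPM (log2 ratio 9.47, 8.43 to 10.78) and Ccl2, which attracts monocytes, from 0.839 to 26.4 CPM (4.98). Cxcl1 had a log2 ratio of -0.39, and Cxcl10, an interferon-responsive chemokine, was the one lower gene, from 6.79 to 0.642 CPM (-3.40). Of the matrix-degrading enzymes, Adamts5, an aggrecanase, went from 2.01 to 271 CPM (7.08) and Mmp13 from 0.153 to 22.4 CPM (7.19). The cytokine Il6 went from 0.678 to 24.5 CPM (5.17), and Ptgs2, the inducible cyclooxygenase, from 15.5 to 314 CPM (4.34). The acute-phase genes Saa3 and Lcn2 had log2 ratios of 6.70 and 5.79. Icam1, an adhesion molecule, was at 33.3 and 11.8 CPM, a log2 ratio of -1.49.

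These genes did not all share a cluster in culture. Ptgs2 and Saa3 were highest in the Hmcn1 cluster, at 520.0 and 113 CPM, where Il1rl1 was highest too. Mmp3 and Mmp13 were highest in the Mmp13 cluster, Lcn2 in the Nr5a2 cluster at 222 CPM, where Il1rl1 was lowest, and Il6 and Adamts5 in the 52 cells led by Lars2.

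Of the genes that process or release IL-1 family ligands, 9 of 16 had at least 1 CPM, 2 were at least 4-fold higher and 1 was lower, close to the shares of 12.6% and 7.48% over all genes, with a median log2 ratio of 0.51. With RLE scaling 1 was higher. The higher genes were Gsdmd, which encodes the pore-forming gasdermin D (3.75), and Casp4 (2.22). The lower gene was Cma1, with 503 UMIs in the primary, of which 491 came from the single cell with mast cell transcripts, and 3 in the cultured library.

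**Figure D4:**
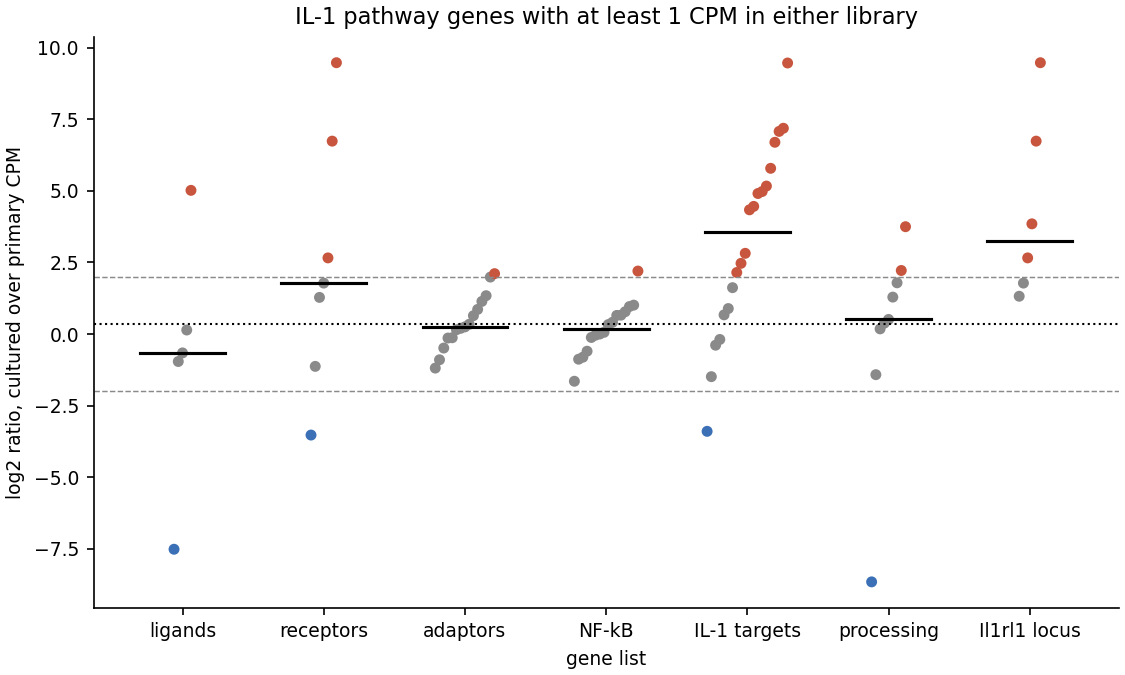
Log2 ratio of cultured over primary CPM (y axis) for each gene that reached 1 CPM in a library, by list (x axis). Each point is a gene, red from 4-fold higher and blue from 4-fold lower (dashed lines), black bars are list medians and the dotted line is the median of all genes, 0.36. The IL-1 target list has its median at 3.58, whereas the medians of the adaptor and NF-kB lists lie near the dotted line. The lists were written with earlier results of these data known, so nothing is read from these medians. Il1rl1, Il1r1, Il1rl2 and Il18rap appear in both the receptor and the locus list.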

How the data were processed

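Primary and cultured CDSCs had been sequenced as 1 library each. The deposited files hold unnormalised UMI counts by gene and barcode, which the authors had made with Cell Ranger 7.0.0. The study's methods give GRCm38 as the genome, while the submitters' processing notes name a newer build beside it. The annotation release was not given in the sources used here. Members and gene lists were chosen with earlier results of these data known.

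Counts were summed over kept cells and scaled to CPM. For log2 ratios any count under 3 was set to 3, and genes with 3 or fewer counts in both libraries got none. Sums have Poisson, shares Clopper-Pearson and ratios conditional exact intervals. PCR copies were collapsed by UMI. Each library was clustered alone in scanpy 1.11.5 with Leiden (leidenalg 0.10.2) at resolution 0.5 on 10 principal components of 2000 variable genes and 20 neighbours. For 1 cultured cluster of at least 50 cells the values are not reported here, although it entered the correlations across clusters. Scrublet called 0 primary and 1 cultured doublet, had therefore not worked, and no doublets were removed. TMM and RLE scaling came from edgeR 4.0.16. Scripts were tested on simulated data.

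Named genes were the members, list genes with at least 10 CPM or a 4-fold ratio, with other list members given where a count needed them, the 8 genes most like Il1rl1 across clusters of at least 50 cells by log2(CPM + 1), leading genes of clusters and cell type markers. Leading genes were ranked by fold among genes with at least 50 CPM in the cluster. Il1a, Il1r2 and Il18r1 are named to complete their families.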

Additional observations from a re-analysis of the deposited data

Results flagged for a closer look

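Barcodes that failed the cell filter enter no comparison of the report other than the alternative that used all deposited barcodes. Several members had point values in these barcodes above what a count of 0 allows. In the cultured library these 5460 barcodes held Il1rl1 at 119 CPM, close to the 119.8 CPM of the kept cells, Il33 at 1.59 CPM, Il1r1 at 100 CPM, Il1rap at 42.7 CPM and Il1rn at 4.13 CPM. In the primary library the 150 such barcodes held Il1r1 at 19.0 CPM (5.19 to 48.7) on 4 UMIs. Il1rap was there at 23.8 CPM (7.73 to 55.5) on 5 UMIs. A count of 0 in these 150 barcodes allows up to 17.6 CPM, which both intervals overlap. Whether these barcodes are damaged cells or droplets with free RNA was not tested.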

How the results depend on the processing

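With 1 library per group, differences between animals, preparations and sequencing runs cannot be told apart from culture. No paired analysis was possible because the labels give no replicate numbers and each group has 1 library. In each of the 10 alternative cell filters and scalings run, 4 of the 5 members were higher in culture and Il33 was lower. TMM and RLE scaling lowered the median log2 ratio of all genes by 0.20 and 0.23. The Il1rl1 log2 ratio lay between 8.99 (each cell weighing the same) and 9.51, except 10.28 without the primary cluster with mast cell and endothelial markers and 10.20 without the 1 cell with mast cell transcripts, an alternative chosen after seeing the data. Of the 74 genes of the joined lists, 22 were at least 4-fold higher and 4 lower, against 12.6% and 7.48% of all genes. The lists were written with earlier results of these data known, so nothing about the pathway is read from these counts. The counts were 19 and 4 with TMM, 17 and 4 with RLE, 23 and 8 with no minimum and 32 and 9 at 2-fold. With at least 10 CPM they were 14 and 0, against 10.6% and 5.73% of all genes. The share of cells with Il1rl1 was 0.0173% in the primary library at 2500 UMIs, and in the cultured library 17.8% at 2500, 41.1% at 10000 and 65.0% without thinning. The highest Il1rl1 level of a cultured cluster was 321 CPM at resolution 1.0, 189.6 CPM with 30 principal components and 273 CPM without the highest doublet scores, each time in a cluster with Hmcn1 among its 10 leading genes. At 10000 UMIs the 10% of cells with the most Il1rl1 held 59.3% of its UMIs, and the Il1r1 gap between cells with and without Il1rl1 was 1.52 percentage points. The Il1rap gap reversed to 1.05 percentage points in the second thinning.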
